A study of Mus musculus with 12 samples.

Results

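The Ugt2 glucuronosyltransferases are the 8 genes Ugt2a3, Ugt2b1, Ugt2b5, Ugt2b34, Ugt2b35, Ugt2b36, Ugt2b37 and Ugt2b38, chosen by their symbols out of 36047 genes to which the deposited transcripts could be assigned. Their RNA was measured by polyA RNA-seq in the liver of 12 adult male C57Bl/6J mice, 3 in each of 4 diet groups. The mice ate for 7 days either a regular fat (RF) or a high fat (HF) diet, and each fat level came as a control diet (Ctrl) or a sulfur amino acid restricted diet (SAAR). The groups are named by fat level and diet, so that HF.SAAR mice ate the restricted high fat diet and RF.Ctrl mice the regular fat control diet. None of the 4 diets contained cysteine, and the restricted diets contained less methionine, with glutamic acid making up the difference. All mice were housed alone and went without food for several hours before euthanasia, and the labels name no engineered allele. According to the paper, its mice were also labeled with deuterium, by an injection of deuterium oxide and through the drinking water.

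Glucuronosyltransferases sit in the membrane of the endoplasmic reticulum and move glucuronic acid from UDP-glucuronic acid onto lipophilic molecules, which makes them soluble enough for export into bile or urine. The Ugt2 branch is known for steroid hormones, bile acids, fatty acid derivatives and drugs such as opioids, whereas the Ugt1a branch is known for bilirubin and phenols. The Ugt2 genes listed here do not overlap one another, unlike the Ugt1a genes, which share their last exons.

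All 8 genes lay on chromosome 5, between bases 86889767 and 87424203 of GRCm38, in the order Ugt2b34, Ugt2b1, Ugt2b35, Ugt2b36, Ugt2b5, Ugt2b37, Ugt2a3 and Ugt2b38. The span measured 534437 bases, and Ugt2b35 was the only one of the 8 on the plus strand. The most abundant annotated transcript of every member had 6 exons and a coding sequence of 1590 to 1605 bases. The 110 bases before the RefSeq start site (GRCm38.p6) of 6 members are shown because 4 of them hold the same 6 letters close to the start, while Ugt2b1 and Ugt2a3 do not. The windows of Ugt2b34 and Ugt2b35, which are not shown, do not hold these letters either. Capitals mark those letters, AGGTCA, a half-site of nuclear receptors, the ligand-activated transcription factors that include the xenobiotic receptors of the liver.
Ugt2b1, chr5:86926504-86926613, minus strand: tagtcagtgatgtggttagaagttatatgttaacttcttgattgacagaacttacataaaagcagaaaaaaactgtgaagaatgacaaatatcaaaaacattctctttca
Ugt2b36, chr5:87092556-87092665, minus strand: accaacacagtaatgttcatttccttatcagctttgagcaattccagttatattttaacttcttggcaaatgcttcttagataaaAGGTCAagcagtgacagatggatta
Ugt2b5, chr5:87140341-87140450, minus strand: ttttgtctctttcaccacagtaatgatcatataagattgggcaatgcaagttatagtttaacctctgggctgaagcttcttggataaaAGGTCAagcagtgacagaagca
Ugt2b37, chr5:87254789-87254898, minus strand: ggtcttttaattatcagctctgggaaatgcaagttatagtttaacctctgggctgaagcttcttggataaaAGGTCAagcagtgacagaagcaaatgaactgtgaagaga
Ugt2a3, chr5:87337196-87337305, minus strand: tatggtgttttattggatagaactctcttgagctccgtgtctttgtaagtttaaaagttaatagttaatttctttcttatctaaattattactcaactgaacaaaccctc
Ugt2b38, chr5:87424204-87424313, minus strand: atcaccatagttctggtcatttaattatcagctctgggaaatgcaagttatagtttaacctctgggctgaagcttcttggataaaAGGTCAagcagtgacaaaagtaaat

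In the 250 bases before the start, AGGTCA on either strand was found in 5 of the 8 members (Ugt2b5, Ugt2b35, Ugt2b36, Ugt2b37 and Ugt2b38) and in 4607 of 32851 promoters in RefSeq, which is 14.02%. In Ugt2b5, Ugt2b36, Ugt2b37 and Ugt2b38 its last base lay between 17 and 34 bases before the start, and in Ugt2b35 it lay 210 bases before it, outside a window of the length shown. TGATGNAA and TTCNNNGAA, searched on both strands, were found in none of the 8 members and in 3.45% and 7.02% of all promoters. The members descend from copies of one another, so these promoters are not independent of each other, and a match of letters is not a bound site.

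The coding sequences fell into a close group and 3 more distant genes. Ugt2b5 and Ugt2b38 were identical at 97.0% of aligned bases, Ugt2b5 and Ugt2b37 at 94.7%, and Ugt2b37 and Ugt2b38 at 94.1%. Ugt2b35 and Ugt2b36 were 85.9% to 88.5% identical to those 3 genes and to each other, Ugt2b1 and Ugt2b34 were 74.6% identical to each other, and Ugt2a3 was at most 68.5% identical to any other member. This matters for the values, because kallisto divides reads that fit several transcripts. Of the 31-base words in the transcripts of a member, 99.2% were found in no other gene for Ugt2b1, 97.0% for Ugt2b34, 95.6% for Ugt2b35, 92.0% for Ugt2a3 and 88.0% for Ugt2b36. The share was 65.6% for Ugt2b37, 47.1% for Ugt2b38 and 43.6% for Ugt2b5. The counts of the last 3 genes therefore rest partly on how reads were divided between them and are uncertain.

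**Figure D1:**
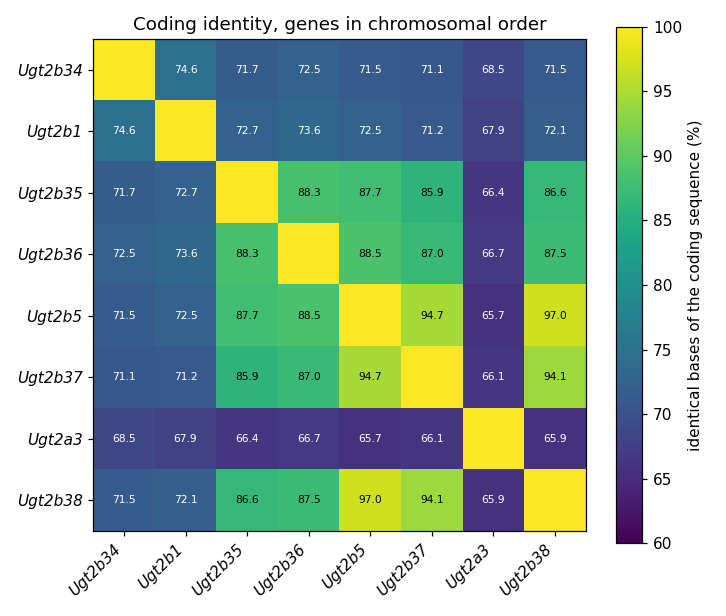
Percent of identical bases in pairwise global alignments of the coding sequences of the 8 Ugt2 genes, with the genes in chromosomal order on both axes and the colour scale running from 60% to 100%. Ugt2b5, Ugt2b37 and Ugt2b38 form the brightest block, at 94.1% to 97.0%, and Ugt2a3 is the darkest row, at 65.7% to 68.5%.

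The libraries held 16203094 to 21230092 estimated counts each, and 14670 genes passed the filter on low counts, including all 8 members. Normalized CPM below are estimated counts relative to the library total after scaling by TMM (the trimmed mean of M-values), and a call means a Benjamini-Hochberg adjusted p under 0.05 over all tested genes in edgeR's quasi-likelihood test. The mice were separate animals, so p-values measure the spread between mice. Sums of cell markers are CPM of the library total without TMM scaling. The 8 hepatocyte markers summed to 82390 to 102500 CPM and none was at 0 in any mouse. Markers of pancreatic acinar cells (21 genes, none at 0) summed to 44.9 to 88.9 CPM in 7 mice and to 1350 CPM in RF.Ctrl mouse 1, 1588 and 5448 in HF.Ctrl mice 1 and 2, and 3629 and 18880 in HF.SAAR mice 2 and 3. Beside the HF comparison, the 6 Kupffer cell markers summed to 196 to 255 CPM in HF.Ctrl and 268 to 355 in HF.SAAR. Beside the RF comparison, the 5 sinusoidal endothelial markers summed to 195 to 228 CPM in RF.Ctrl and 239 to 246 in RF.SAAR. Neither pair of ranges overlapped on this scale, but both overlap once divided by the TMM factors. Those factors were 0.863 to 0.998 in HF.Ctrl, 0.98 to 1.076 in HF.SAAR, 0.945 to 0.979 in RF.Ctrl and 1.035 to 1.11 in RF.SAAR. EdgeR called no Kupffer cell marker in HF and no endothelial marker in RF. It did call the hepatocyte marker Serpina1c lower in RF (log2 difference -0.60, adjusted p = 0.00768) and in HF (-0.43, adjusted p = 0.0345). The stellate cell marker Lrat was called lower in RF (-0.86, adjusted p = 0.0408). Averaged over fat, Serpina1c (-0.52), Lrat (-0.59) and the cholangiocyte marker Spp1 (-0.46) were called lower, and the endothelial marker Lyve1 (0.55) higher. Cholangiocyte and stellate cell markers overlapped between Ctrl and SAAR at both fat levels without TMM scaling, at 35.4 to 58.7 and 242 to 340 CPM. Divided by the TMM factors, the cholangiocyte ranges do not overlap in HF. In whole liver, fewer cells of a type and less RNA per cell cannot be told apart.

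The family was abundant, but its members spanned a wide range of levels. On the TPM scale, which corrects for length, Ugt2b5 averaged 773 over the 12 mice, Ugt2b36 615, Ugt2b1 256, Ugt2b34 162, Ugt2a3 147, Ugt2b35 79.1, Ugt2b38 11.7 and Ugt2b37 0.987. Ugt2b5 ranked 129th and Ugt2b36 167th among all genes by mean TPM. Ugt2b5 was above Ugt2b36 in every one of the 12 mice, with a ratio of 1.11 to 1.39 within a mouse, although their ranges over all mice overlapped (542 to 1028 against 407 to 863 TPM). The ranges of Ugt2b1, Ugt2b34 and Ugt2a3 overlapped too, at 152 to 351, 111 to 209 and 113 to 183 TPM, and the order of the latter 2 depended on the diet. Ugt2b35, at 47.5 to 122 TPM, reached into the range of Ugt2a3, whereas Ugt2b38 (1.96 to 32.1) and Ugt2b37 (0.247 to 1.91) overlapped with no neighbour, nor did Ugt2b36 with Ugt2b1. Ugt2b36 had 4 annotated transcripts, of which a 6-exon coding transcript carried 78.6% of its TPM and a retained-intron transcript 13.0%. The coding transcript took 90.9% to 93.1% of the gene's estimated counts in every mouse of every group.

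Ugt2b1 and Ugt2a3 fell under restriction at both fat levels. Ugt2b1 is one of the Ugt2b enzymes that conjugate steroids and drugs, and was at 775, 626 and 659 normalized CPM in RF.Ctrl and at 366, 314 and 466 in RF.SAAR. In the HF mice it was at 683, 859 and 775 CPM in HF.Ctrl and at 454, 438 and 423 in HF.SAAR. The lowest of the 6 control mice was above the highest of the 6 restricted mice. Ugt2b1 fell by 0.85 on the log2 scale in RF.SAAR vs. RF.Ctrl (SE 0.14, adjusted p = 0.00818, edgeR) and by 0.82 at high fat (SE 0.14, adjusted p = 0.00791), a 1.80-fold and a 1.76-fold lower level. When transcripts were tested in place of genes, the RF value of Ugt2b1 was again -0.85 with an adjusted p of 0.0674 (edgeR), which misses the threshold.

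Ugt2a3, whose human counterpart conjugates bile acids, was at 306, 301 and 330 CPM in RF.Ctrl and at 197, 191 and 221 in RF.SAAR. It was at 339, 327 and 329 CPM in HF.Ctrl and at 207, 243 and 190 in HF.SAAR. Again no restricted mouse reached the lowest control mouse, and the 3 HF.Ctrl mice differed by an SD of only 6.18 CPM. Ugt2a3 fell by 0.62 in RF (SE 0.10, adjusted p = 0.00904, edgeR) and by 0.64 in HF (SE 0.10, adjusted p = 0.00607) on the log2 scale.

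With both fat levels averaged, Ugt2b1 was lower by a log2 fold change of -0.83 (SE 0.10) and Ugt2a3 by -0.63 (SE 0.07), each with an adjusted p of 0.000234 (edgeR). Both calls held when any 1 of the 12 mice was left out, with adjusted p between 0.000105 and 0.00141. In a check added after the data were seen, the 5 mice above 1000 CPM of acinar markers were left out, so that HF.Ctrl and HF.SAAR kept 1 mouse each, assumed to vary like the others. There Ugt2a3 was at -0.66 (adjusted p = 0.0289) and Ugt2b1 at -0.77 (adjusted p = 0.0447) in that averaged comparison. The single comparisons lost their calls in that smaller set, where Ugt2a3 stood at -0.64 (adjusted p = 0.0651) in RF and -0.69 (adjusted p = 0.309) in HF, and Ugt2b1 at -0.75 (adjusted p = 0.102) and -0.79 (adjusted p = 0.402).

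**Figure D2:**
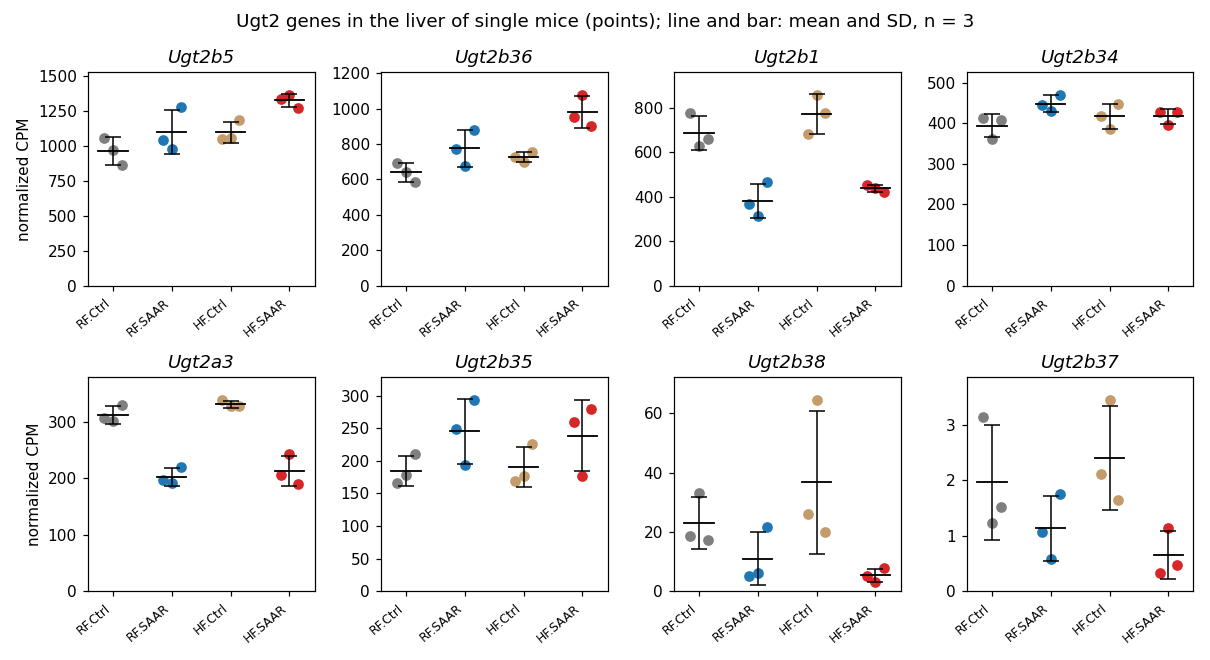
Normalized CPM (linear axes starting at 0) of the 8 Ugt2 genes in single mice, ordered by mean TPM, with the 3 mice of each diet group as points and the mean and SD as black lines. Ugt2b1 and Ugt2a3 are lower in all 6 SAAR mice than in any Ctrl mouse, and Ugt2b36 is above all Ctrl mice in 5 of 6.

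Ugt2b36 moved the other way. It was at 691, 643 and 586 CPM in RF.Ctrl and at 770, 675 and 880 in RF.SAAR. It was at 726, 697 and 754 CPM in HF.Ctrl and at 955, 1078 and 903 in HF.SAAR. The HF groups did not overlap, and 5 of the 6 restricted mice were above every control mouse. The log2 difference was 0.28 in RF (SE 0.11, adjusted p = 0.270, edgeR) and 0.43 in HF (SE 0.11, adjusted p = 0.0661), neither of them called. Averaged over fat, Ugt2b36 rose by 0.35 (SE 0.08, adjusted p = 0.0145), a level 1.28 times as high, and the call held without any 1 mouse (adjusted p 0.00738 to 0.0432). It was lost, at 0.34 (adjusted p = 0.0690), when the most abundant transcript was tested in place of the gene, and, at 0.33 (adjusted p = 0.264), without the 5 mice with high acinar markers.

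Ugt2b5, the most abundant member, lay in the same direction without passing the test. It was at 1060, 975 and 862 CPM in RF.Ctrl and at 1045, 982 and 1280 in RF.SAAR, which overlap. It was at 1052, 1063 and 1185 CPM in HF.Ctrl and at 1340, 1369 and 1275 in HF.SAAR, which do not overlap. The averaged log2 difference was 0.23 (SE 0.08, adjusted p = 0.103, edgeR). Ugt2b35 differed by 0.37 (SE 0.13, adjusted p = 0.132), with 4 of 6 restricted mice above every control mouse. Its call appeared without HF.SAAR mouse 2, at 0.45 (adjusted p = 0.0416). That mouse held 176 CPM of Ugt2b35, against 259 and 280 in the other HF.SAAR mice.

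Ugt2b34 had the smallest averaged difference of the 8. Its group means were 394 CPM ± 27.8 (SD, n = 3) in RF.Ctrl, 448 ± 20.4 in RF.SAAR, 417 ± 30.6 in HF.Ctrl and 417 ± 18.4 in HF.SAAR. The averaged log2 difference was 0.09 (SE 0.06, adjusted p = 0.474, edgeR).

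Ugt2b38 and Ugt2b37 were the least abundant members and spread widely between mice, and of the pair edgeR called Ugt2b38 averaged over fat. Ugt2b38 was at 18.6, 33.0 and 17.3 CPM in RF.Ctrl and at 5.22, 6.26 and 21.5 in RF.SAAR, so that RF.SAAR mouse 3 fell inside the control range. It was at 25.9, 64.5 and 19.9 CPM in HF.Ctrl and at 5.15, 3.15 and 7.68 in HF.SAAR, which do not overlap. Averaged over fat, Ugt2b38 fell by 1.92 on the log2 scale (SE 0.48, adjusted p = 0.0473, edgeR), a 3.79-fold lower level. This call was lost when any of 11 of the 12 mice was left out, with adjusted p up to 0.117, and was kept only without RF.SAAR mouse 3 (-2.39, adjusted p = 0.0132). Without the mice of high acinar markers the value was -1.58 (adjusted p = 0.478). Neither single comparison called it, with -1.06 (SE 0.66, adjusted p = 0.566) in RF and -2.78 (SE 0.70, adjusted p = 0.0992) in HF.

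Ugt2b37 held 6.01 to 62.2 estimated counts per library, at 1.23 to 3.45 CPM in the control mice and 0.322 to 1.75 in the restricted mice, and 5 of the 6 restricted mice were below every control mouse. The averaged value was -1.34 (SE 0.38, adjusted p = 0.0506, edgeR). Of 9 other settings, 5 called it and 4 did not. It was called in DESeq2 (adjusted p = 0.0142). EdgeR called it with no filter (adjusted p = 0.0374), library size alone (0.0445), the pancreatic genes removed (0.0497) or their signal as a covariate (0.0422). With single mice left out, 2 of 12 fits called it, those without RF.SAAR mouse 3 (0.0454) or HF.SAAR mouse 2 (0.0235). The adjusted p in those 12 fits reached 0.129. Without the mice of high acinar markers the value of Ugt2b37 was -1.31. Ugt2b38 in turn lost its averaged call with no filter (adjusted p = 0.0863, edgeR), with the most abundant transcript (0.0688) and with the covariate (0.0600). Summed as 1 gene, a choice made after the values were seen, Ugt2b5, Ugt2b37 and Ugt2b38 differed by 0.20 on the log2 scale (SE 0.08, adjusted p = 0.166). Ugt2b5 held 94% to 99.7% of those summed counts in every mouse, so that the sum follows Ugt2b5. The share of Ugt2b38 was 1.65% to 5.71% in control mice of both fat levels, 0.498% to 1.65% in RF.SAAR and 0.228% to 0.599% in HF.SAAR. How far this share follows the division of shared reads was not tested.

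**Figure D3:**
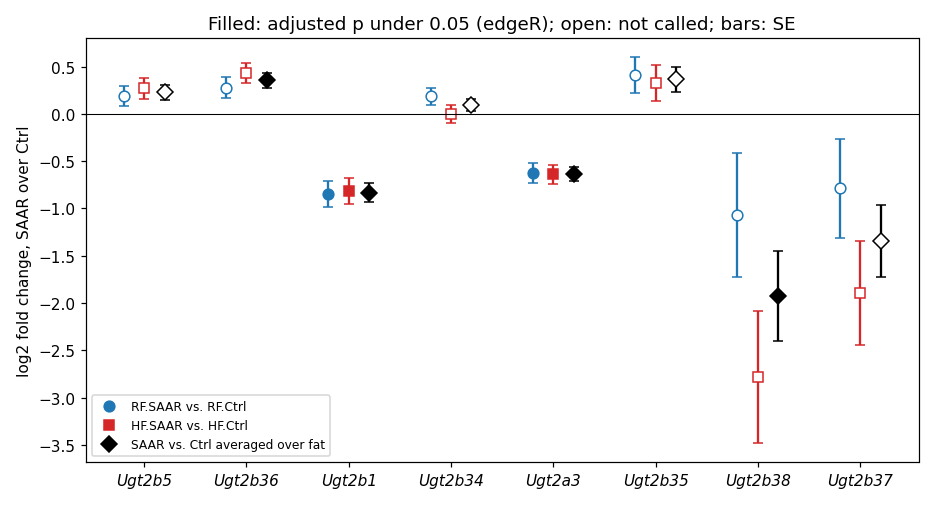
Log2 fold change of SAAR over Ctrl (y axis, 0 marked) for the 8 Ugt2 genes at regular fat (blue circles), at high fat (red squares) and averaged over fat (black diamonds), with bars for the SE and filled symbols for adjusted p under 0.05. Ugt2b1 and Ugt2a3 are filled below 0 in all 3 comparisons, Ugt2b36 above 0 and Ugt2b38 below 0 only in the average.

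The members were chosen with earlier results of these data known, so counts over the family describe this set and do not test it. Counted over the family, 2 of 8 members fell in RF.SAAR vs. RF.Ctrl, where 0.886% of all tested genes fell, and 2 of 8 fell in HF.SAAR vs. HF.Ctrl, where 0.961% fell. DESeq2 called 5 members in the HF comparison (Ugt2a3, Ugt2b1, Ugt2b37 and Ugt2b38 lower, Ugt2b36 higher), against 4.65% of the genes it tested. Averaged over fat, 3 members fell and 1 rose, against 3.7% of all genes lower and 3.22% higher, or 6.92% in either direction. The groups did not overlap for 3 members in RF and for 6 in HF, against 18.2% and 17.9% of all genes, and for 2 members over all 6 control and 6 restricted mice, against 4.3% of all genes. The median log2 fold change of the 8 members was -0.22 in RF, -0.32 in HF and -0.27 averaged, and the medians of all genes were -0.00131, -0.00144 and -0.00386. With library size in place of TMM the averaged median of all genes was 0.16, and all 8 members were called, 4 lower and the other 4 higher. Ugt2b34, Ugt2b35, Ugt2b36 and Ugt2b5 were then at 0.26 to 0.54. Of all 14670 genes, 2449 were called in that setting, 2175 higher and 274 lower.

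The make-up of the family is free of that scaling, since each share is taken within 1 mouse. Ugt2b1 made up 16.8% ± 1.03 (SD, n = 3) of the summed TPM of the 8 genes in RF.Ctrl and 9.22% ± 0.592 in RF.SAAR, and 16.9% ± 1.74 in HF.Ctrl and 9.04% ± 0.310 in HF.SAAR. Ugt2a3 went from 9.44% ± 1.02 to 6.05% ± 0.350 in RF and from 8.91% ± 0.514 to 5.37% ± 0.490 in HF. Ugt2b36 went from 26.2% ± 0.700 to 31.5% ± 0.521 in RF and from 26.7% ± 0.949 to 34.3% ± 1.56 in HF. Ugt2b5 stood at 35.0% and 39.2% in the RF groups and at 35.5% and 40.2% in the HF groups. None of these 4 shares overlapped between control and restricted mice, and because shares sum to 100%, they are not independent of one another. The summed TPM of the family was 1772 ± 69.2 in RF.Ctrl, 2179 ± 392 in RF.SAAR, 1820 ± 303 in HF.Ctrl and 2410 ± 194 in HF.SAAR. On this measure the RF groups overlapped and the HF groups did not. Unlike the shares, the sum depends on scaling between mice, and TMM was not applied to it. With library size in place of TMM, all genes shifted up under restriction by a median of 0.16 on the log2 scale. The summed TPM therefore does not show that the family total rose.

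**Figure D4:**
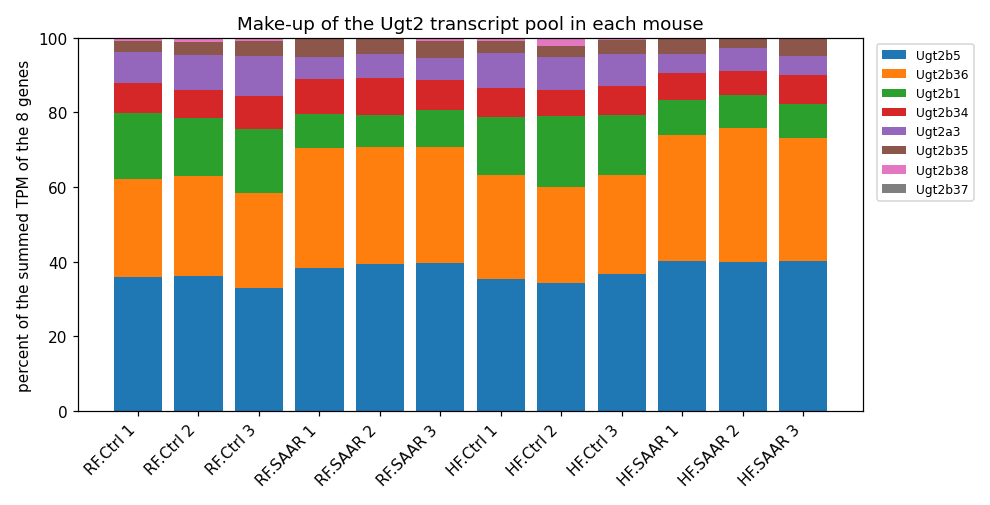
Percent of the summed TPM of the 8 Ugt2 genes (stacked bars from 0 to 100) in each of the 12 mice, coloured by gene. The green Ugt2b1 and purple Ugt2a3 segments are thinner, and the blue Ugt2b5 and orange Ugt2b36 segments thicker, in the SAAR mice than in the Ctrl mice.

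Ratios within a mouse separated the diets as well. Ugt2b36 exceeded Ugt2b1 by 1.37 to 1.78 times in the control mice and by 3.16 to 4.14 times in the restricted mice, on the TPM scale. Ugt2b34 was below Ugt2a3 in all 6 control mice, at 0.803 to 0.916 of its TPM, and above it in all 6 restricted mice, at 1.11 to 1.53. Both ratios were picked after their values were seen and are given without a test.

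**Figure D5:**
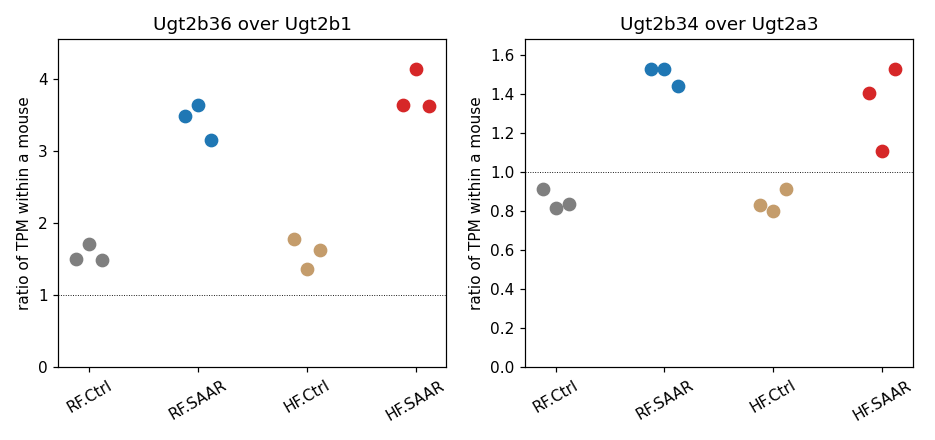
Ratio of TPM within a mouse (linear axes from 0, dotted line at 1) for Ugt2b36 over Ugt2b1 and for Ugt2b34 over Ugt2a3, with each point 1 mouse and 3 mice per diet group. The 6 SAAR mice lie above all 6 Ctrl mice in both plots, at 3.16 to 4.14 and at 1.11 to 1.53.

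No member passed the test for fat content, with or without restriction. In HF.Ctrl vs. RF.Ctrl all 8 log2 differences were above 0, between 0.05 and 0.68, but edgeR called 0 members, 0 had an unadjusted p under 0.05 and DESeq2 called 0. In that comparison edgeR called 0% of all genes and DESeq2 0.212%, and 1 member, Ugt2b36, did not overlap between the groups, against 8.51% of all genes. In HF.SAAR vs. RF.SAAR edgeR again called 0 members, DESeq2 called 0 and 2 had an unadjusted p under 0.05. Those were Ugt2b36, at 0.34 (SE 0.11, adjusted p = 0.665), and Ugt2b5, at 0.27 (SE 0.11, adjusted p = 0.818). All genes gave 0.0477% in edgeR and 0.564% in DESeq2, and 2 members (Ugt2b34 and Ugt2b36) did not overlap, against 10.1% of all genes.

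The test of whether the response to restriction differed between the fat levels called 0 members in edgeR and 0 in DESeq2, and 0 had an unadjusted p under 0.05, with 0.00682% and 0.106% of all genes called. The interaction was -0.01 (SE 0.15) for Ugt2a3 and 0.03 (SE 0.19) for Ugt2b1 on the log2 scale. For Ugt2b36 it was 0.16 (SE 0.15), and for Ugt2b34 -0.18 (SE 0.13). It was widest for Ugt2b38, at -1.72 (SE 0.94, adjusted p = 0.999).

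Across the 12 mice, the log2 CPM of Ugt2b5 and Ugt2b36 went together with a Pearson r of 0.956, and those of Ugt2a3 and Ugt2b1 with an r of 0.932. Ugt2b34 and Ugt2b35 had an r of 0.716, whereas Ugt2a3 and Ugt2b36 had an r of -0.543. These mice share 4 diets and the same libraries, so the coefficients describe the set and were given no p. Outside the Ugt2 family, the genes most like Ugt2a3 over the 12 mice were F13b (r = 0.973), Prnp (0.960), Narf (0.949), Slc31a1 (0.947) and Aadac (0.946). F13b encodes a subunit of a clotting factor, Slc31a1 a copper importer and Aadac a microsomal deacetylase, and all 5 genes fell in the averaged comparison, by 0.27 to 0.64 on the log2 scale. The genes most like Ugt2b36 were Glul (r = 0.951), Atp6v1a (0.919), Crp (0.914), Cd36 (0.899) and Cpne8 (0.897). Of these, Atp6v1a (0.27), Crp (0.31) and the fatty acid transporter Cd36 (0.65) rose, while Glul, which makes glutamine in the hepatocytes around the central vein, was at 0.22 (adjusted p = 0.0832, edgeR) and Cpne8 at 0.55 (adjusted p = 0.130).

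Of 14 further genes with a Ugt symbol, not all of which use glucuronic acid, 10 were tested, and 1 rose and 1 fell averaged over fat. Ugt1a9 rose by 2.11 (SE 0.15, adjusted p = 5.79e-06, edgeR), from means of 57.8 to 152 CPM in RF and of 33.0 to 236 CPM in HF. Ugt3a1, which uses N-acetylglucosamine in place of glucuronic acid, fell by 0.47 (SE 0.09, adjusted p = 0.00546). Ugt1a7c, at group means of 0.818 to 1.87 CPM, differed by -0.62 (adjusted p = 0.255). The remaining Ugt2 genes of the locus were scarce, with Ugt2a2 under 1 CPM in every group mean and Ugt2a1 below the filter. The median over the 10 genes was -0.09, where that of all genes was -0.00386.

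Of 8 genes listed for the supply of UDP-glucuronic acid, the transport of nucleotide sugars or the removal of the conjugate, Ugdh rose and Slc35d2 fell. Ugdh, the dehydrogenase that makes UDP-glucuronic acid, rose by 0.84 (SE 0.10, adjusted p = 0.000323, edgeR), from means of 138 to 269 CPM in RF and 136 to 225 in HF. Slc35d2, a nucleotide sugar transporter, fell by 0.47, and Slc35d1 was at 0.07 (adjusted p = 0.830, edgeR). Whether the fall of Slc35d2 bears on the supply of UDP-glucuronic acid was not tested. Of 10 transporters of conjugates and anions, Slco1a4 rose by 0.73, and Slc22a7, Abcg2 and Slco1a1 fell by 1.002, 0.45 and 0.43.

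Averaged over fat, of 12 transcription factors of drug metabolism, only Nr1i3, the xenobiotic receptor CAR, passed the test, at 0.58 (SE 0.15, adjusted p = 0.0421, edgeR). Among 7 tested target genes of CAR and PXR, Gstm3 (1.18) and Slco1a4 rose and Cyp3a11 fell by 0.75. Among 6 targets of AHR, Nqo1 (0.87), which is also on the NRF2 list, rose and 5 were not called. In RF edgeR called 0 genes of these 2 lists, with Gstm3 at 0.32, Slco1a4 at 0.30 and Nqo1 at 0.34. In HF it called Gstm3 (2.03) and Nqo1 (1.40), but not Slco1a4 (1.16, adjusted p = 0.0598) or Cyp3a11 (-1.01, adjusted p = 0.0927). The interaction called 0 genes of either list in edgeR, and 1 of the 7 and 0 of the 6 in DESeq2. Of 10 targets of PPARA, 5 rose averaged over fat, among them Cyp4a14 (3.97), Acot2 (0.93) and Cyp4a10 (1.85). Taken singly, 4 of the 10 rose in RF, with a median log2 difference of 1.13, and edgeR called 0 in HF, with a median of 0.27, where 4 had an unadjusted p under 0.05 and DESeq2 called 4. The interaction called 0 of the 10 in edgeR and 0 in DESeq2, and 3 had an unadjusted p under 0.05. Of 12 targets of NRF2, 7 rose in the average, among them Gstm1 (0.96), Gsta2 (1.77) and Ugdh, and 3 rose in RF and 4 in HF.

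Enzymes that act on steroids and bile acids formed the list with the most lower calls. It was also the largest pathway list, and the lists were chosen with earlier results of these data known. Of 16 tested, 12 fell and 2 rose averaged over fat, with a median of -0.56 on the log2 scale. Hsd3b2, of the 3β-hydroxysteroid dehydrogenases, fell by 1.19 (SE 0.09), Cyp2d9, a male-specific steroid hydroxylase, by 0.82 (SE 0.08) and Hsd3b3 by 0.70 (SE 0.09). The 2 that rose were the sulfotransferases Sult1d1 (0.49) and Sult1a1 (0.45). Ugt2b1 at -0.83 and Ugt2a3 at -0.63 lay within the range of the lower members of this list. Ugt2b36 rose, so its sign alone placed it outside that range, and a link to this list was not tested.

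The genes next to the cluster did not move as a block either. Within the span of the 8 members, 4 of 18 other annotated genes were tested, all pseudogenes with means under 4 CPM, and none was called, with log2 differences from -0.35 to 0.61 (edgeR). In the 500000 bases on either side, 8 of 33 genes were tested. Sult1b1, 89136 bases beyond Ugt2b38, fell by 0.51 (SE 0.11, adjusted p = 0.0124, edgeR), and Sult1d1, 130442 bases beyond it, rose.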

How the data were processed

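Liver RNA of 12 mice was sequenced by the authors as polyA-selected paired-end libraries without stated molecular identifiers, trimmed with cutadapt and assigned with kallisto to a mouse Ensembl transcriptome. The authors deposited for each mouse the kallisto estimated count, the TPM and the effective length of 118489 transcripts. Estimated counts are whole libraries before any scaling, and TPM was computed by kallisto from those counts and the effective lengths of the deposited files, so both rest on how reads shared by related transcripts were divided.

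Estimated counts were summed per gene over the 116816 transcripts found in GENCODE M21 (GRCm38) and rounded. The groups came from the labels, in which the diet field holds the fat level and the fat field holds the restriction. Genes were filtered with filterByExpr and tested with edgeR 4.0.16 (quasi-likelihood, robust, TMM) in 1 fit with a coefficient for each of the 4 groups, and p-values were adjusted over 14670 genes at a threshold of 0.05. The depth of 16203094 to 21230092 counts limits precision for Ugt2b37. Comparisons were restriction at each fat level and averaged, fat at each diet and the interaction. All 8 members were named, with up to 3 called genes per direction of each pathway list and the 5 genes most like Ugt2a3 and Ugt2b36 by Pearson r of log2 CPM (prior count 2). The members and lists were chosen with earlier results of these data known. Ugt2a1, Ugt2a2 and the genes beside the cluster were named after their values were seen.

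DESeq2 1.42.0, other scalings and filters, effective length offsets, transcript counts, pancreatic marker corrections and leaving out mice were tried as alternatives. The fits were tested on simulated data with 200 changed genes. Promoters came from RefSeq, in which all 8 members were matched. Coding sequences were aligned with Biopython 1.88.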

Additional observations from a re-analysis of the deposited data

How the results depend on the processing

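Ugt2b1 and Ugt2a3 kept their call averaged over fat under all 10 other settings and without any 1 of the 12 mice. DESeq2 called 5 members in that average, with Ugt2b37 besides the 4 of the report. Ugt2b37 was also called there with the pancreatic genes removed (adjusted p = 0.0497, edgeR). The number of members called averaged over fat, 4 in the report, was 8 with library size in place of TMM, 2 with the most abundant transcript of each gene and 2 without the 5 mice above 1000 CPM of pancreatic markers. In HF.SAAR vs. HF.Ctrl the number, 2 in the report, was 5 in DESeq2, 0 without those 5 mice, and 3 with library size alone (adding Ugt2b36 at 0.59, adjusted p = 0.0118, edgeR), without RF.SAAR mouse 2 (adding Ugt2b36, adjusted p = 0.0414) and without RF.SAAR mouse 3 (adding Ugt2b38, adjusted p = 0.0379). For restriction at regular fat it was 1 with the most abundant transcript, where Ugt2b1 was at -0.85 (adjusted p = 0.0674), 0 without those mice, and 1 to 2 when single mice were left out, the 1 arising without RF.Ctrl mouse 3, where Ugt2a3 was at -0.58 (adjusted p = 0.0502, edgeR). Fewer mice remained in the fits that left mice out, and for the other settings the cause was not tested. With library size alone, the median log2 difference of all genes moved to 0.16 averaged over fat, and all genes called went from 472 higher and 543 lower to 2175 higher and 274 lower, from 88 and 130 to 359 and 66 in RF, and from 148 and 141 to 639 and 80 in HF. DESeq2 called 591 genes in RF and 595 in HF, against 218 and 289. In HF.SAAR vs. RF.SAAR, where 7 genes were called, the count was 85 in DESeq2, 14 without a filter, 4 with library size alone and 0 with the covariate. In HF.Ctrl vs. RF.Ctrl, with 0, it was 31 in DESeq2 and at most 3 under the other planned settings, and for the interaction, with 1, it was 16 in DESeq2 and 0 with effective length offsets. With the compared groups alone, 190 genes were called in HF. Without the 5 mice of high pancreatic markers, 81 genes were called in RF, 6 in HF and 234 averaged over fat.

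Every value that changed sign was one that neither fit called. HF.SAAR vs. HF.Ctrl gave Ugt2b34 at -0.0021 with offsets for effective length, -0.0031 with the compared groups alone and -0.0849 without the mice of high pancreatic markers. HF.Ctrl vs. RF.Ctrl gave Ugt2b35 at -0.0043 with library size alone, Ugt2b37 at -0.0238 with the pancreatic signal as a covariate and Ugt2b38 at -0.3291 without those mice. HF.SAAR vs. RF.SAAR gave Ugt2b35 at 0.1115 with the covariate and 0.0692 without those mice. The interaction gave Ugt2b35 at 0.0046 with the covariate, and Ugt2b1 at -0.043, Ugt2b5 at -0.1061 and Ugt2b36 at -0.014 without those mice. With single mice left out, Ugt2b34 ranged from -0.0531 to 0.054 in HF.SAAR vs. HF.Ctrl. In HF.SAAR vs. RF.SAAR, Ugt2a3 ranged from -0.0402 to 0.1485 and Ugt2b35 from -0.1839 to 0.1283. In HF.Ctrl vs. RF.Ctrl, Ugt2b35 ranged from -0.0942 to 0.1485, Ugt2b37 from -0.0612 to 0.8113 and Ugt2b38 from -0.0069 to 1.037. For the interaction, Ugt2a3 ranged from -0.1323 to 0.0615, Ugt2b1 from -0.0949 to 0.1849 and Ugt2b35 from -0.2302 to 0.0758. Ugt2b37 was not tested where at least 10 counts were required in every mouse. No paired analysis was possible because the labels give the mice no replicate numbers, litters or batches, and the mouse numbers used here only name the mice of a group.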
